A study of Mus musculus with 9 samples.

Results

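The levels of 10 matrix glycoprotein genes were read in PPTR cells, a mouse intrahepatic cholangiocarcinoma (iCCA) line, with and without a Cas9 knockout of *Vcam1*. They are *Fn1*, *Sparc*, *Postn*, *Tgfbi*, *Thbs1*, *Thbs2*, *Comp*, *Tnc*, *Fbn1* and *Eln*, and were taken by symbol from a table of 55276 symbols, in which all 10 were found. The line came from a liver cancer of the genotype Prom1CreERT2; Ptenflx/flx; Tp53flx/flx; Rosa-ZsGreen, in which a tamoxifen-activated Cre under the *Prom1* promoter deletes both tumor suppressors, and all groups carry these alleles. The WT cells, called control cells in the paper, were compared with KO1 and KO2, which are 2 single-cell clones made with a guide against *Vcam1*, all cultured in medium with serum. Each group had 3 libraries from different passages, 9 in all. In the tests by clone, a p-value therefore rests on the spread between passages. In the test of KO against WT, the libraries of both clones were pooled as KO. The spread behind its p-values thus also holds differences between the clones, and libraries of the same clone count as separate replicates. What belongs to *Vcam1* loss and what belongs to a clone cannot be told apart. The clones share the 3 WT libraries as their control. In bulk RNA, fewer cells of a type and less RNA per cell cannot be told apart either.

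Matricellular proteins are secreted into the matrix but act mainly on cells, by binding integrins, growth factors and collagen, while elastic fibres are built from an elastin core on a scaffold of fibrillin microfibrils. In the liver these proteins are known chiefly from activated stellate cells and myofibroblasts, and in carcinoma cells several of them are known from epithelial-to-mesenchymal transition (EMT). Fibronectin is the provisional matrix on which many of the others assemble.

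Libraries held between 53415907 and 125223073 estimated counts, and levels are given in CPM, the usual count of a gene scaled to its library's size, here with TMM factors. *Vcam1* itself stood between 221 and 329 CPM in WT and between 83.0 and 128 CPM in the 6 KO libraries. The cholangiocyte and epithelial markers of the labelled cell type were found in WT cells but for *Cldn7* and *Cldn4*, and most were close to absent from the clones. *Cldn7* was at 0 counts in all 9 libraries, and *Cldn4* was close to absent from WT cells, at 0.24 to 0.49 CPM. The keratins *Krt8*, *Krt18* and *Krt19* stood at 2129 CPM or more in each WT library and at 0.50 CPM or less in each KO library. *Sox9* and *Spp1* were not lost. *Sox9* was at 115 to 141 CPM in WT and 107 to 378 CPM in KO libraries (log2 fold change 0.67, adjusted p = 0.15 by edgeR). *Spp1* was higher in KO, at 2066.5 to 3133 CPM in WT and 7459 to 10797 CPM in KO libraries (2.03, adjusted p = 8.2e-05 by edgeR). The summed level of 10 biliary and epithelial genes lay between 13490 and 15178 CPM in WT, 10546 and 10975 CPM in KO1 and 7567 and 11022 CPM in KO2, where it rested on *Spp1* (7459 CPM or more in the KO libraries). KO1 replicate 3 stood apart from its group, with a chi-square per degree of freedom of 240 and 275 against the other libraries of KO1, which differed from each other by 36.0, while WT pairs differed by 84.4 to 169. In KO2, replicate 3 differed from the others by 113 and 166, within the range of the WT pairs, and the others from each other by 35.8.

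As the strongest rise and a clear fall, *Postn* and *Thbs2* are shown here by the 250 bases before their RefSeq start sites, written 5′ to 3′ on the strand of the gene (GRCm38.p6). RefSeq gives 2 start sites for *Postn*, and the window shown is that of the start next to the GENCODE gene start, while the other holds 0 matches to any motif searched. The *Postn* window shown is at chr3:54360857-54361106 on the plus strand, and its capitals mark a TATAAA that begins 26 bases before the start. The *Thbs2* window is at chr17:14694263-14694512 on the minus strand, and its capitals mark the same motif on the other strand, read as TTTATA, 126 bases before the start.
Postn: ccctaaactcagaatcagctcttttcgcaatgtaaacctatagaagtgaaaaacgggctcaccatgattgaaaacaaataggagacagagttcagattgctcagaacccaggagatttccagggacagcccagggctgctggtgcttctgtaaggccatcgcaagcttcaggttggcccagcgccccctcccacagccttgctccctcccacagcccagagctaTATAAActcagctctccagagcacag
Thbs2: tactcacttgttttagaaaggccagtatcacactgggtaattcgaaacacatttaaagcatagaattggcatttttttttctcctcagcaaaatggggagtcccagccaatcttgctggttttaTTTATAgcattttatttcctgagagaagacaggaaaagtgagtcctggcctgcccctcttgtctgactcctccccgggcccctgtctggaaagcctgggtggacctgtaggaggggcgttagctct
Start sites were given for 6 of the 10 genes, in 8 windows. On both strands, TATAAA was found in 12.4% of the 32851 windows of the same length. The other motifs searched were GGGCGG (32.7% of windows), CAGGTG (17.2%), TGANTCA (6.75%) and CATTCC (12.6%), and none of these 4 (0 matches) was found in either sequence shown. A match describes these letters only.

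Of the 10 genes, 7 were higher and 2 lower in KO than in WT cells in the quasi-likelihood test of edgeR, adjusted by Benjamini-Hochberg over all 17672 genes tested, where 21.7% of genes were higher and 21.2% lower. The 7 higher genes were *Fn1*, *Sparc*, *Postn*, *Tgfbi*, *Thbs1*, *Comp* and *Fbn1*, the lower ones *Thbs2* and *Eln*, and *Tnc* did not pass. The same 7 and 2 genes had every KO library beyond every WT library, as did 21.2% of all genes tested upward and 23.0% downward. The median log2 fold change of the 10 was 2.87, against 0.07 over all genes. Against WT, KO1 had 7 of the genes higher and 2 lower (29.9% and 30.0% of all genes), and KO2 had 6 higher and 2 lower (25.3% and 26.1%). Together the 10 genes took up between 0.36% and 0.51% of all counts in WT libraries, between 1.78% and 1.99% in KO1 and between 1.10% and 1.56% in KO2. The plot of levels by library shows each gene on its own log axis.

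**Figure D1:**
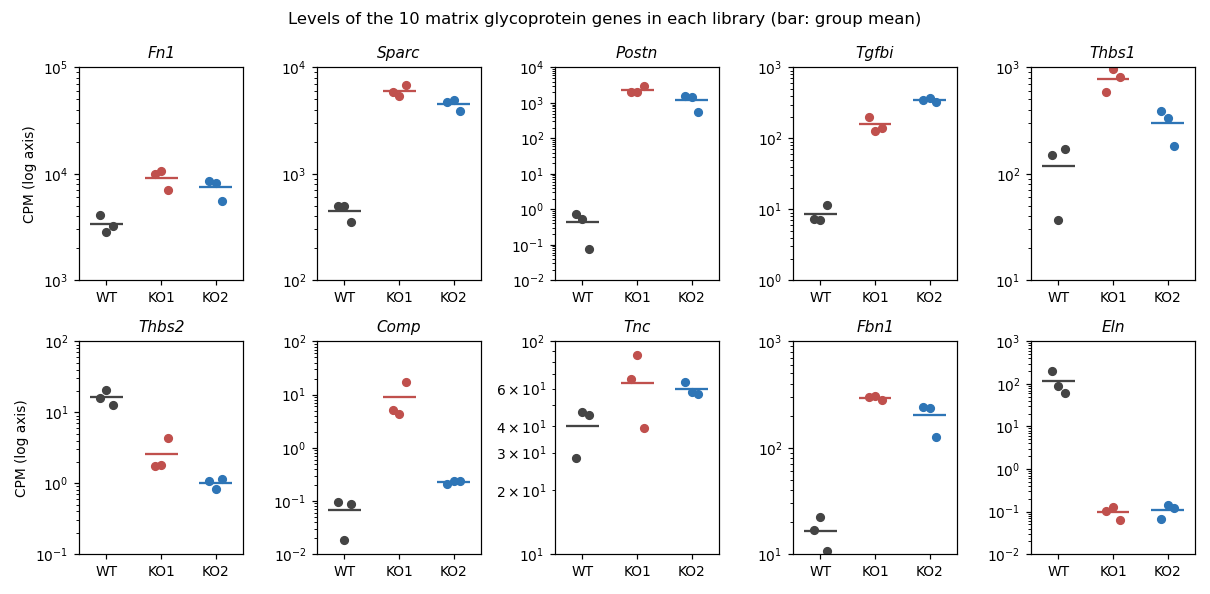
Level of the 10 matrix glycoprotein genes in each library, in CPM on a log axis, with 3 libraries each of WT (black), KO1 (red) and KO2 (blue), and a bar at the group mean. For *Sparc*, *Postn*, *Tgfbi* and *Fbn1* all 6 KO libraries sit far above WT, *Eln* and *Thbs2* sit below it, and *Tnc* overlaps.

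Fibronectin, the abundant integrin-binding scaffold encoded by *Fn1* (chr1:71585520-71653200, minus strand), was already high in WT cells. It stood at 4137.5, 2868 and 3224 CPM in the WT libraries, at 9994, 10554 and 7058 CPM in KO1 and at 8555, 8291 and 5613.5 CPM in KO2. Every KO library lay above every WT library, and KO2 replicate 3 came nearest to WT. The mean was 8344 ± 1831 CPM (SD, n = 6) against 3410 ± 655 CPM (SD, n = 3), a log2 fold change of 1.29 (SE 0.24, adjusted p = 0.0023 by edgeR), which was the smallest change of the 7 higher genes. By level in CPM it was the 8th most abundant gene of WT cells, the 2nd of KO1 and the 3rd of KO2.

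SPARC (*Sparc*, chr11:55394500-55423183, minus strand), also called osteonectin, binds collagen and modulates cell adhesion. *Sparc* was at 503, 495 and 356 CPM in WT, at 5844, 5361 and 6841.5 CPM in KO1 and at 4706, 4912 and 3879.5 CPM in KO2. The groups did not overlap, and the lowest KO library was KO2 replicate 3. The log2 fold change was 3.54 (SE 0.25, adjusted p = 7.1e-06 by edgeR), an 11.6-fold rise, which brought it from the 320th most abundant gene in WT to the 5th in KO1 and the 6th in KO2.

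Periostin (*Postn*, chr3:54361109-54391037, plus strand) and the TGF-beta-induced protein (*Tgfbi*, chr13:56609523-56639562, plus strand) are the paralogs built of fasciclin domains, and both bind integrins and collagen. *Postn* was close to absent from WT cells, with 91, 29 and 6 counts, or 0.73, 0.54 and 0.076 CPM. In KO1 it reached 2025, 2088 and 2926 CPM and in KO2 1580, 1499 and 550.5 CPM. KO2 replicate 3 stood at about 1 in 3 of the level of the other KO2 libraries and was still far above WT. The log2 fold change of *Postn* was 11.94 (SE 1.03, adjusted p = 2.3e-05 by edgeR), the 3rd highest of the 17672 genes. WT replicate 1 was its highest WT library, and without it the log2 fold change was 12.55.

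*Tgfbi* was at 7.22, 7.05 and 11.3 CPM in WT, at 203, 127 and 141 CPM in KO1 and at 349, 366 and 324 CPM in KO2. Here the clones did not overlap and KO2 was the higher, the reverse of the order of *Postn*. The rise over both clones was 4.88 on the log2 scale (SE 0.49, adjusted p = 5.6e-05 by edgeR), with 4.20 in KO1 and 5.34 in KO2. The clones differed by -1.14 (KO1 minus KO2, SE 0.22, adjusted p = 0.0036 by edgeR). For *Postn* the log2 difference between clones was 0.96 (SE 0.53, adjusted p = 0.18 by edgeR) and did not pass.

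The ratio of *Postn* to *Tgfbi* counts within a library therefore moved in steps. It was 0.10, 0.076 and 0.0067 in the WT libraries, 9.96, 16.4 and 20.7 in KO1, and 4.53, 4.09 and 1.70 in KO2. WT libraries held more *Tgfbi* than *Postn* counts, all KO libraries the reverse, and the ranges of the 3 groups did not overlap. Differences in transcript length cancel when a ratio is compared between libraries.

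The thrombospondins bind calcium, integrins and matrix proteins. Thrombospondin 1 (*Thbs1*, chr2:118111876-118127133, plus strand), the trimeric form known as an activator of latent TGF-beta and an inhibitor of angiogenesis, was at 151, 37.1 and 169.5 CPM in WT, 582, 972 and 806 CPM in KO1 and 390.0, 332 and 184 CPM in KO2. WT replicate 2 was far below the other WT libraries, and KO2 replicate 3 was barely above the highest of them. The log2 fold change was 2.19 (SE 0.64, adjusted p = 0.021 by edgeR), with 2.72 in KO1 (adjusted p = 0.0015) and 1.34 in KO2 (adjusted p = 0.048). The call over both clones was lost without WT replicate 1 (adjusted p = 0.054) or WT replicate 2 (log2 fold change 1.71, adjusted p = 0.061). The call of *Thbs1* in KO2 was lost in 8 of its alternatives, with adjusted p-values from edgeR of up to 0.15 (without KO2 replicate 1) and 0.11 (without KO2 replicate 2), and a log2 fold change of 0.89 without WT replicate 2.

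Thrombospondin 2 (*Thbs2*, chr17:14665500-14694235, minus strand), the closest relative of *Thbs1* in structure and likewise anti-angiogenic, moved the other way. It was at 16.0, 20.5 and 12.6 CPM in WT, at 1.77, 1.78 and 4.29 CPM in KO1 and at 1.06, 0.82 and 1.15 CPM in KO2. All KO libraries lay below all WT libraries, and KO1 replicate 3 was the highest of them. *Thbs2* fell by 3.17 on the log2 scale (SE 0.48, adjusted p = 0.00066 by edgeR), or 9.0-fold. The ratio of *Thbs1* to *Thbs2* counts was 9.44, 1.81 and 13.5 in WT libraries, 329, 545 and 188 in KO1 and 367, 405 and 159 in KO2. The clones overlapped in this ratio, although *Thbs2* itself was higher in KO1 than in KO2 by 1.36 (SE 0.37, adjusted p = 0.018 by edgeR), a call lost with limma-voom (adjusted p = 0.055) and without KO2 replicate 1 (0.050) or KO2 replicate 2 (0.070).

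Cartilage oligomeric matrix protein (*Comp*, chr8:70373558-70382066, plus strand), the pentameric thrombospondin known from cartilage and tendon, was raised clearly in KO1 alone of the 2 clones. WT libraries held 12, 1 and 7 counts of it (0.096, 0.018 and 0.089 CPM), and KO2 libraries 12, 17 and 16 counts (0.21, 0.24 and 0.24 CPM). In KO1 it was at 5.21, 4.38 and 17.2 CPM, with the highest value again in replicate 3. The log2 fold change was 6.89 in KO1 (SE 0.70, adjusted p = 2.8e-05 by edgeR) and 1.61 in KO2 (SE 0.70, adjusted p = 0.083), and the clones differed by 5.28 (SE 0.63, adjusted p = 0.00028). Without KO1 replicate 3 the log2 fold change in KO1 was 6.0 and the difference between the clones 4.38, and both stayed past the threshold. The call over both clones (5.98, adjusted p = 0.029 by edgeR) mixed these unequal clones. It was 4.25 as the average of the clones' contrasts and 4.79 without KO1 replicate 3, and it was lost with limma-voom (4.30, adjusted p = 0.15) and without WT replicate 1 (0.088), WT replicate 2 (0.099) or WT replicate 3 (0.086).

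Tenascin C (*Tnc*, chr4:63959785-64047015, minus strand), a large anti-adhesive glycoprotein of stroma and wounds, was at 28.2, 46.7 and 45.0 CPM in WT, 66.4, 86.0 and 39.0 CPM in KO1 and 64.4, 57.7 and 56.6 CPM in KO2. KO1 replicate 3 fell within the WT range, and the other 5 KO libraries were above it. The log2 fold change was 0.63 (SE 0.25, adjusted p = 0.068 by edgeR). Without KO1 replicate 3 it was 0.72 and passed the threshold (adjusted p = 0.019), as it did in KO1 alone (0.94, adjusted p = 0.0045). Other single libraries moved it the other way. The log2 fold change was 0.42 without WT replicate 1 (adjusted p = 0.25 by edgeR). In KO1 alone it was 0.40 without KO1 replicate 2 (adjusted p = 0.23 by edgeR).

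The elastic fibre genes split. Fibrillin 1 (*Fbn1*, chr2:125300594-125507993, minus strand), the main protein of microfibrils and a store of latent TGF-beta, was at 17.0, 22.3 and 10.6 CPM in WT, 300, 307 and 282 CPM in KO1 and 241.5, 239 and 127 CPM in KO2. Every KO library was above every WT library, with KO2 replicate 3 at about 1 in 2 of the level of the other KO2 libraries. *Fbn1* rose by 3.91 on the log2 scale (SE 0.37, adjusted p = 3.8e-05 by edgeR), a 15.0-fold change, and the clones' difference of 0.55 did not pass (SE 0.29, adjusted p = 0.16).

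Tropoelastin (*Eln*, chr5:134702593-134747323, minus strand), the soluble monomer that is cross-linked into the elastin core, was close to lost. WT libraries held 25139, 4961 and 4961 counts of *Eln*, or 200, 91.6 and 62.7 CPM. KO1 libraries held 7, 12 and 4 counts and KO2 libraries 4, 10 and 8 counts, which is 0.064 to 0.14 CPM, just above the limit of detection of 3 counts. The libraries of the 2 clones overlapped, and the lowest WT library lay far above all of them. *Eln* fell by 10.11 on the log2 scale (SE 0.43, adjusted p = 4.4e-07 by edgeR), the 99th largest decrease of the 17672 genes tested, with -10.17 in KO1 and -10.03 in KO2. WT replicate 1 was the highest by more than 2-fold, and without it the value was -9.50 (-9.56 in KO1 and -9.42 in KO2).

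Within each WT library *Eln* counts exceeded *Fbn1* counts, by 11.8, 4.11 and 5.90 times. In KO libraries the order was turned, with *Fbn1* over *Eln* at 2861, 2451 and 4420 in KO1 and 3524, 1688 and 1070 in KO2. The ranges of the clones overlapped in this ratio, as they did for *Thbs1* over *Thbs2*, while those of *Postn* over *Tgfbi* did not. The plot of ratios places the 3 pairs side by side.

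**Figure D2:**
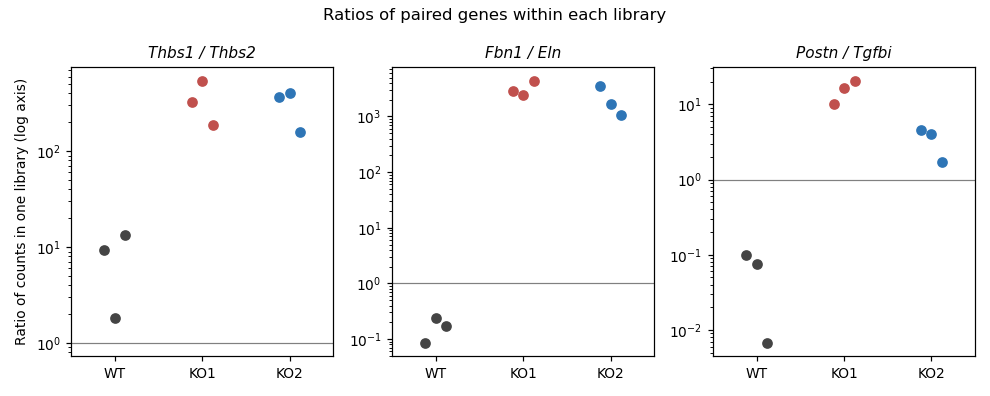
Ratio of the counts of 2 genes within each library on a log axis, for *Thbs1* over *Thbs2*, *Fbn1* over *Eln* and *Postn* over *Tgfbi*, with a grey line at 1. *Fbn1* over *Eln* crosses the line between WT and KO libraries, from 0.24 or less to 1070 or more, and *Postn* over *Tgfbi* from 0.10 or less to 1.70 or more.

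Compared with each other, KO1 had 2 of the 10 genes higher (*Comp* and *Thbs2*) and 1 lower (*Tgfbi*) than KO2 by edgeR, where 20.2% of all genes tested were higher and 18.5% lower. The remaining 7 did not pass. The nearest to the threshold was *Thbs1* (log2 difference 1.38, SE 0.50, adjusted p = 0.054), which passed with DESeq2 (adjusted p = 0.015) and in 3 other alternatives. *Sparc* (0.42), *Fn1* (0.30), *Tnc* (0.10) and *Eln* (-0.14) differed by less than 0.5 on the log2 scale. KO2 replicate 3 was the lowest of the 6 KO libraries for 5 genes (*Fn1*, *Sparc*, *Postn*, *Thbs1* and *Fbn1*) and the lowest of its own group for 7. Without that library, all 5 of these genes kept their calls against WT, in KO2 and over both clones.

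**Figure D3:**
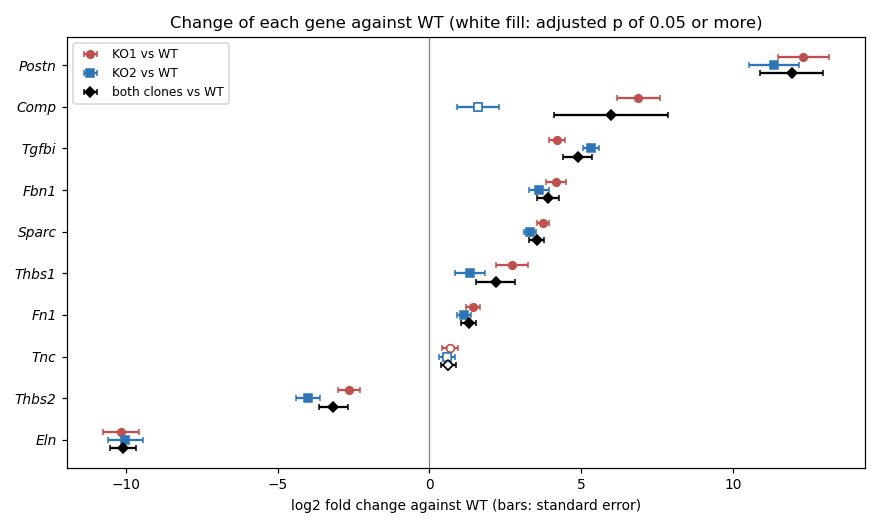
Log2 fold change of each gene against WT in KO1 (red), KO2 (blue) and both clones (black), with bars of 1 standard error and a white fill where the adjusted p was 0.05 or more. The clones lie together for *Eln*, *Fn1* and *Tnc* and far apart for *Comp*, at 6.89 and 1.61.

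Set per length, as counts per kilobase of the longest protein-coding transcript (GENCODE vM21) on the CPM scale, the order of the levels changed between the groups. In WT it was *Fn1* (410 ± 78.8, SD, n = 3), *Sparc* (196), *Eln* (30.7), *Thbs1* (20.4), *Tnc* (5.63), *Tgfbi* (3.14), *Thbs2* (2.77), *Fbn1* (1.39), *Postn* (0.14) and *Comp* (0.028). Neighbours from *Eln* to *Thbs2* in this order, and *Postn* and *Comp*, overlapped between libraries. In KO1 *Sparc* came first (2615.5), before *Fn1* (1107), *Postn* (732), *Thbs1* (134.5), *Tgfbi* (57.9), *Fbn1* (24.7), *Tnc* (8.98), *Comp* (3.70), *Thbs2* (0.44) and *Eln* (0.025), and only *Fn1* with *Postn* and *Tnc* with *Comp* overlapped. In KO2 the order was *Sparc* (1956), *Fn1* (900.4), *Postn* (377), *Tgfbi* (128), *Thbs1* (51.6), *Fbn1* (16.9), *Tnc* (8.38), *Thbs2* (0.17), *Comp* (0.094) and *Eln* (0.028), with no overlap of neighbours. *Eln* was thus 3rd in WT and last in each clone, and *Postn* 9th in WT and 3rd in each clone. With the median transcript length these places of *Eln* and *Postn* were the same, while *Tgfbi* and *Tnc* in WT, *Tnc* and *Comp* in KO1 and *Comp* and *Thbs2* in KO2 changed places.

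**Figure D4:**
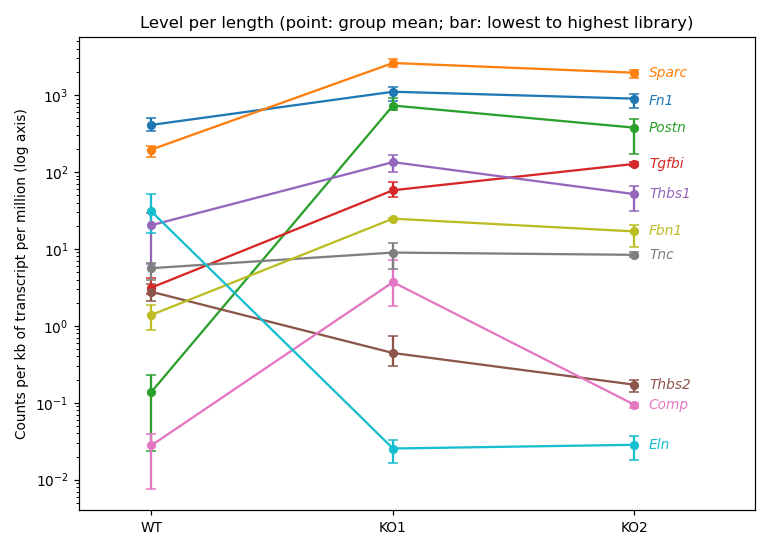
Level of the 10 genes per length in WT, KO1 and KO2, as CPM per kilobase of the longest protein-coding transcript on a log axis, with a point at the mean of 3 libraries and a bar from the lowest to the highest. *Eln* drops from 30.7 to 0.025 and 0.028 while *Postn* climbs from 0.14 to 732 and 377.

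The partners of elastic fibres were read from a list of 18 genes, of which 15 were tested. Against WT, 8 were higher and 2 lower over both clones by edgeR, with a median log2 fold change of 1.76 against 0.07 over all genes, of which 21.7% were higher and 21.2% lower. *Lox*, the copper enzyme that cross-links collagen and elastin, was at 0.63, 1.11 and 0.46 CPM in WT, 845, 1113 and 703 CPM in KO1 and 533, 497 and 432 CPM in KO2. Its log2 fold change was 9.89 (SE 0.58, adjusted p = 2.8e-06 by edgeR), and every KO library was far above WT. Its relative *Loxl1* rose by 4.98 and *Efemp1*, the fibulin 3 gene, by 5.91 (adjusted p = 0.0002 and 0.0012 by edgeR). The lower genes were *Ltbp2* (-3.43) and *Ltbp4* (-2.19), both latent TGF-beta binding proteins found on microfibrils, and they are named because they were the only 2. Their relatives *Ltbp1* and *Ltbp3* were higher, by 1.27 and 1.39 (adjusted p = 0.032 and 0.0099 by edgeR). For *Ltbp1* the KO and WT libraries overlapped. In *Efemp2*, the fibulin 4 gene needed for elastin cross-linking, the clones moved apart, with -4.01 in KO1 and 1.56 in KO2 (difference -5.58, SE 0.43, adjusted p = 2.2e-05 by edgeR). *Emilin2*, which binds elastic fibre components, likewise was lower in KO1 (-1.15) and higher in KO2 (1.33), a difference of -2.48 (adjusted p = 0.0013 by edgeR). By clone, 9 genes of the list were higher and 4 lower in KO1, and 10 were higher and 3 lower in KO2, where the shares over all genes were 29.9% and 30.0% in KO1 and 25.3% and 26.1% in KO2. *Ltbp1*, *Ltbp3*, *Efemp2*, *Emilin2* and *Fbln5* were chosen after their values were seen. *Fbln5*, the fibulin 5 gene that also serves elastic fibre assembly, was higher in KO1 (5.03, adjusted p = 7.8e-05 by edgeR) and at -1.05 in KO2 (adjusted p = 0.22), a difference of 6.08 (SE 0.65, adjusted p = 0.00016). It was at 0.063 to 0.33 CPM in WT, 4.10 to 8.35 CPM in KO1 and 0.030 to 0.14 CPM in KO2. The sizes of these changes thus rest on few counts in WT and KO2.

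Of 20 other matricellular genes 16 were tested, with 9 higher and 2 lower over both clones (21.7% and 21.2% of all genes) and a median log2 fold change of 1.58 against 0.07 over all genes. *Fstl1*, a SPARC family member, was at 22.0, 24.3 and 13.6 CPM in WT, between 922 and 954 CPM in KO1 and between 433 and 772 CPM in KO2 (log2 fold change 5.31, adjusted p = 5.9e-06 by edgeR). *Ccn5* rose by 4.91 (adjusted p = 0.00024), and *Tnxb*, a tenascin, fell by 3.40 (adjusted p = 0.00015). *Thbs3*, the thrombospondin of the same pentameric kind as *Comp*, rose by 1.70 in KO1 and by 1.69 in KO2 (adjusted p = 2.5e-05 and 3.3e-05 by edgeR), and it was named after its values were seen. So were *Ccn3* and *Ccn2*, in which the clones had opposite calls. *Ccn3* fell by 4.93 in KO1 and rose by 1.48 in KO2 (adjusted p = 1.1e-05 and 0.0051 by edgeR). In KO1 it was close to absent, at 0.10, 0.17 and 0.032 CPM, the last under the limit of detection. The size of its fall thus rests on few counts. *Ccn2* rose by 0.79 in KO1 and fell by 0.78 in KO2, both close to the threshold (adjusted p = 0.039 and 0.047 by edgeR). The differences of *Ccn3* and *Ccn2* between the clones, KO1 minus KO2, were -6.41 and 1.57 (adjusted p = 1.4e-05 and 0.003 by edgeR). By clone, 11 genes of this list were higher and 3 lower in KO1, and 9 were higher and 3 lower in KO2 (29.9% and 30.0% of all genes in KO1, 25.3% and 26.1% in KO2).

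**Figure D5:**
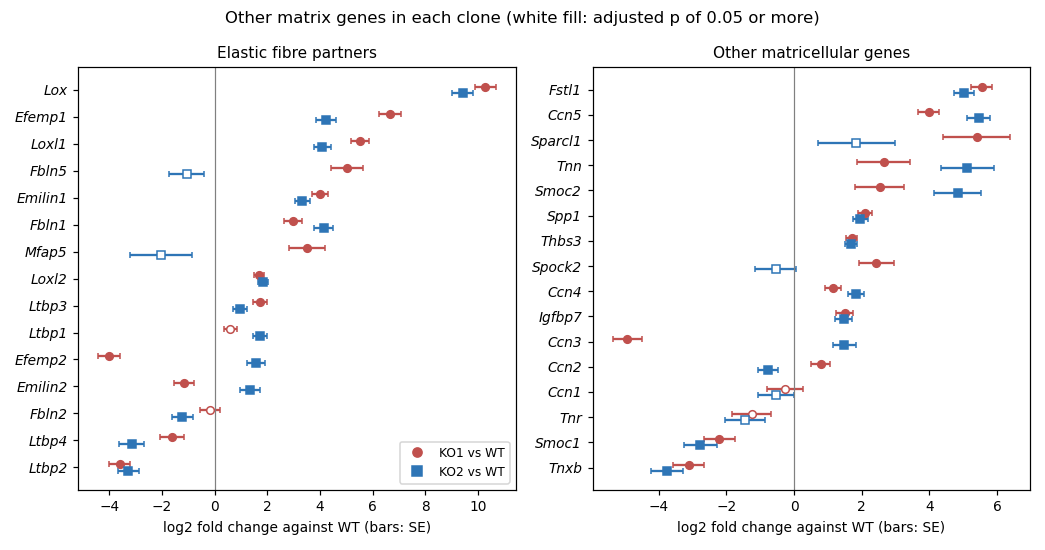
Log2 fold change against WT of the tested elastic fibre partners (left) and other matricellular genes (right) in KO1 (red) and KO2 (blue), with bars of 1 standard error and a white fill where the adjusted p was 0.05 or more. *Lox* and *Fstl1* lie far to the right in each clone, while *Efemp2* and *Ccn3* lie on opposite sides of 0.

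The receptors of these proteins, 16 integrin chains and other surface proteins that were all tested, had 5 higher and 3 lower, with a median log2 fold change of 0.63 against 0.07 over all genes. Over all genes 21.7% were higher and 21.2% lower. *Itga9*, an integrin chain that binds tenascin C, was at 0.22 CPM or less in WT, between 4.49 and 5.90 CPM in KO1 and between 44.9 and 60.6 CPM in KO2. Its log2 fold change was 7.73 (SE 1.43, adjusted p = 0.0021 by edgeR), and the difference between clones, KO1 minus KO2, was -3.43 (adjusted p = 2.2e-05). *Itgb8*, a chain of an integrin that activates latent TGF-beta, rose by 5.22 (adjusted p = 6.5e-05 by edgeR). *Itga3*, a laminin receptor chain of epithelia, fell by 2.82 (adjusted p = 7e-05 by edgeR). *Cd36*, a receptor of the thrombospondins, was at 0.10, 0.018 and 0.10 CPM in WT, at 13.3, 16.6 and 23.0 CPM in KO1 and at 0, 0 and 0.015 CPM in KO2. It rose by 7.72 on the log2 scale in KO1 (adjusted p = 1.3e-06 by edgeR), while in KO2 it was under the limit of detection and no fold is given. Over both clones *Cd36* had no call (adjusted p = 0.078 by edgeR). The other lower genes of the list were *Cd47* (-1.14, adjusted p = 0.022 by edgeR) and *Itgb6* (-3.26, adjusted p = 0.0053). *Cd47* was lower in each clone, by 1.83 in KO1 and 0.67 in KO2, and *Itgb6* was at 0.94 CPM or less in all libraries. *Cd36*, *Cd47* and *Itgb6* were chosen after their values were seen.

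Of 12 genes of the TGF-beta axis, 5 were higher and 3 lower (21.7% and 21.2% of all genes), with a median log2 fold change of 0.38 against 0.07 over all genes. The ligand genes *Tgfb3* and *Tgfb2* rose by 4.70 and 3.85, and *Tgfbr3*, the co-receptor betaglycan, by 2.87 (adjusted p = 5.9e-05, 0.00082 and 1.4e-05 by edgeR). The lower genes were the receptor gene *Tgfbr1* (-1.51) and the signal transducers *Smad3* (-0.71) and *Smad4* (-0.33), with adjusted p-values of 0.0014, 0.0052 and 0.023 by edgeR. *Tgfb1*, at 79.0 to 96.4 CPM in WT and 71.1 to 116 CPM in the KO libraries, had a log2 fold change of 0.07 (adjusted p = 0.75 by edgeR). It and the 3 lower genes were named after their values were seen. The order of the clones for *Tgfb2* and *Tgfb3*, higher in KO1 by 1.46 and 1.21 (adjusted p = 0.0063 and 0.00044 by edgeR), was the reverse of that for *Tgfbi*.

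The genes whose pattern was most like that of a member were found by Pearson correlation of log2 CPM over the 9 libraries, among 10868 genes with a mean of at least 5 CPM. The genes compared come from the same 9 libraries in 3 groups, so that the coefficients describe likeness only. *Fstl1* was nearest to *Postn* (r = 0.998) and to *Fbn1* (0.996), and *Bgn*, the gene of the proteoglycan biglycan, to *Sparc* (0.999). *Tnfsf11*, the gene of the cytokine RANKL, was nearest to *Eln* (0.996), with a mean of 16.7 CPM in WT, 0.010 CPM in KO1 and 0 in KO2. *Cidec* was nearest to *Thbs2* (0.992), *Ctps2* to *Tgfbi* (0.995), *Vps13c* to *Fn1* (0.983) and *Glis3* to *Thbs1* (0.983). For *Postn*, *Sparc*, *Fbn1*, *Eln* and *Tgfbi*, many other genes also had high coefficients, so that being nearest does not set a gene apart. The nearest gene to *Tnc*, *Itsn2*, reached 0.942, the lowest of those given. Among the members, *Postn* and *Sparc* were closest (r = 0.998), and *Thbs2* and *Tgfbi* the most opposed besides *Eln* (-0.974).

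Some marker genes of other cell types also differed between WT and KO cells, and others did not. The summed level of 8 fibroblast and stellate cell markers was 150 to 311 CPM in WT, 8487 to 10237 CPM in KO1 and 4655 to 5605 CPM in KO2, carried by *Col1a1* (54.9 to 136 CPM in WT and 4199 to 9204 CPM in KO libraries) and with *Pdgfrb* at 20.9 to 39.7 CPM in WT and 342 to 821 CPM in KO. *Acta2* was at 0.19 to 3.06 CPM in WT and 6.07 to 67.1 CPM in KO libraries, and *Pdgfra* at 15.67 to 28.95 CPM and 53.0 to 182 CPM. Both were called higher over both clones (adjusted p = 0.019 and 0.0043 by edgeR). The stellate cell gene *Lrat* held 0 counts in 8 of 9 libraries, and *Thy1* stayed at 0.29 CPM or less in all. *Dcn*, a fibroblast marker, was at 58.3 to 105 CPM in WT, 2.16 to 8.35 CPM in KO1 and 51.7 to 113 CPM in KO2. The 6 haematopoietic markers summed to 3.95 to 8.20 CPM in WT and 4.30 to 8.94 CPM in KO libraries, and the 5 endothelial markers to 0.79 to 2.05 CPM and 1.08 to 4.45 CPM. *Hnf4a*, a hepatocyte transcription factor, was at 207 to 264 CPM in WT and at 0 counts in all 6 KO libraries. The part of these differences in the levels of the matrix genes was not tested.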

How the data were processed

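RNA of WT, KO1 and KO2 PPTR cells went into stranded libraries that were read from both ends. The authors pseudoaligned the reads with kallisto 0.46.1 to GENCODE vM24 transcripts (mm10) and deposited estimated counts per gene symbol, not normalized. The step from transcripts to genes is not given in the sources used here. All values were whole numbers (0 were not), and 0 columns were left out.

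Counts were scaled with TMM, filtered with filterByExpr (17672 of 55276 symbols) and tested with edgeR 4.0.16 (R 4.3.3) by its quasi-likelihood F test. P-values were adjusted by Benjamini-Hochberg, with a threshold of 0.05. The 6 KO libraries were set against the 3 WT libraries in a fit with 2 groups, and each clone in a fit with 3 groups. The standard error was the log2 fold change divided by the square root of F. The limit of detection was 3 counts, which covers counting error only, and a prior count of 2 went into log2 levels. The code was tested on simulated data.

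The genes and lists were chosen with earlier results of these data known. By rule, the text names the 10 genes, *Vcam1*, the 3 largest called changes of each list with a mean of at least 5 CPM, the marker genes needed, and the nearest gene to each member, of which 1 is not reported here. Other names were chosen after their values were seen, as marked. Replicates are numbered in the order of the labels. Positions and lengths are from GENCODE vM21, another release than that of the counts. The longest length is from protein-coding transcripts only, and the median length from all transcripts of a gene, coding or not. Promoter windows are RefSeq's. Alternatives were limma-voom (limma 3.58.1), the study's own test, DESeq2 1.42.0, upper-quartile and RLE factors, no filter and a filter at a mean of 1 CPM, each library left out, fits on 6 libraries, the average of the contrasts of the clones and the median transcript length.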

Additional observations from a re-analysis of the deposited data

Results flagged for a closer look

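Among the 6 KO libraries, *Fbn1* in KO2 replicate 3 (127 CPM) stood apart from the others (239 to 307 CPM), with a gap of 0.716 of the whole range of log2 CPM, which is above the critical value of Dixon's test. At the critical value itself, chance gives a gap as large in about 1 of 20 groups of like libraries. The 6 KO libraries came from different clones, and *Fbn1* was flagged from among the 10 genes. The rate therefore cannot be applied to this gap, which is given as a description only. KO2 replicate 3 was also the lowest KO library for 4 other genes of the 10.

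In 3 genes the effect differed between the clones by the test of the difference itself (edgeR, Benjamini-Hochberg adjustment). The log2 difference, KO1 minus KO2, was 5.28 for *Comp* (adjusted p = 0.00028), 1.36 for *Thbs2* (adjusted p = 0.018) and -1.14 for *Tgfbi* (adjusted p = 0.0036). *Comp* and *Thbs2* were highest in KO1 replicate 3, at 17.2 and 4.29 CPM, where the other KO1 libraries were at 5.21 CPM or less and 1.78 CPM or less. For *Tgfbi*, the 3 KO1 libraries lay between 127 and 203 CPM and the 3 KO2 libraries between 324 and 366 CPM.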

How the results depend on the processing

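The counts of genes called in each clone and over both clones against WT stayed within 1.5 times under all alternatives run. Between the clones, the number of genes higher in KO1 was 2, and 1 with limma-voom and 3 with DESeq2, upper-quartile factors, no filter and fits on 6 libraries. It was 1 to 2 with each library left out. For the 10 genes, 153 of 160 results under alternatives of KO against WT kept direction and side of the threshold, 129 of 130 for KO1, 119 of 130 for KO2 and 119 of 129 for KO1 against KO2. The log2 fold changes that lost their call were those of *Thbs1*, *Comp* and *Thbs2*, given above. In KO2, *Comp* gained a call with DESeq2 (adjusted p = 0.032), and *Tnc* (0.033) and *Comp* (0.027) gained one in edgeR fits on 6 libraries. With each library left out, the log2 difference between the clones, which had no call, lay between -0.18 and 0.36 for *Tnc* and between -0.40 and 0.08 for *Eln* (0.06 without KO1 replicate 3). The elastic fibre partners had 1 lower gene in place of 2 without WT replicate 3. The cause was not tested. No paired analysis was possible because the labels give no replicate numbers. The spread over 3 libraries a group sets the precision, to which differences between the clones add in the fit with 2 groups. *Comp* and *Postn* in WT and *Eln* in KO libraries also rest on few counts. Of the genes from the lists, *Fbln5* in WT and KO2 and *Ccn3* and *Efemp2* in KO1 do so too.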
